A study of Mus musculus with 12 samples.

Results

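Alveolar macrophages clear dying cells from the airspaces, a process called efferocytosis. The 10 genes described here encode its receptors, the secreted proteins that bridge a dying cell to a receptor, and a complex that drives engulfment. They are Mertk, Axl, Tyro3, Gas6, Pros1, Mfge8, Timd4, Lrp1, Elmo1 and Dock1, taken by symbol from a table of 55291 gene symbols. All 10 were among the 19633 genes kept for testing, and none had mice sharing the minimum that marks absence of reads.

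RNA came from alveolar macrophages flow-sorted from the lungs of female C57BL6/NJ mice aged 8 to 11 weeks, 6 exposed to 0.8 ppm ozone and 6 to filtered air. Exposure lasted 4 h per day for 4 consecutive days, and lungs were taken 3 days later. Each library is 1 mouse, and the cells were sorted in 2 batches with 3 mice of each group in each. All mice were killed under urethane anaesthesia, and the labels name no transgene or deletion in either group.

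A dying cell exposes phosphatidylserine on its surface. The TAM receptor tyrosine kinases Tyro3, Axl and Mertk do not bind this lipid themselves but recognise it through the vitamin K-dependent proteins Gas6 and protein S, the product of Pros1. Gas6 is a ligand of all TAM receptors, whereas protein S, also known as a plasma anticoagulant cofactor, acts on Tyro3 and Mertk. Mfge8 bridges phosphatidylserine to integrins, Timd4 binds the lipid directly, and Lrp1 is a large endocytic receptor. Elmo1 and Dock1 together activate the GTPase Rac, which reshapes actin around the prey.

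Expression is given on a variance-stabilized log2 scale, as the distance of a mouse from the average of the filtered-air group, so that group has a mean of 0 throughout. The table therefore keeps no level that could be compared between genes. Differences are compressed where reads are few: in genes that other mice of the batch lacked, 1 read was worth 0.0975 to 0.115, depending on the mouse. All 14 markers of resident alveolar macrophages were detected in every mouse. Of the markers of other cells, the neutrophil genes Camp, Ly6g and Mpo were above the minimum in 0, 1 and 3 mice and the basal cell gene Krt5 in 4, while the rest were detected in all 12. Filtered-air mouse 4, ozone mouse 4 and ozone mouse 6 lay above the median of their own group in 9 of 9 lists of other cell types. In sorted bulk RNA, fewer cells of a type and less RNA per cell cannot be told apart.

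Of the 10 genes, 1 changed between ozone and filtered air: Pros1 fell. Limma's adjusted p was under 0.05 for 4.25% of all genes tested, 2.41% higher and 1.84% lower. An unadjusted p under 0.05 was found for 4 of the 10, Pros1, Axl, Timd4 and Mfge8, against 16.7% of all genes. The ozone and filtered-air values did not overlap in 2 of them, Pros1 and Axl, against 3.53% of all genes. Two-sided exact permutation tests put the same 4 under 0.05, against 18.2% of all genes, and 3 of them (all but Mfge8, at 0.05) when mice were reassigned within batches, against 15.1%. Differences went in both directions, with 4 genes above 0 and 6 below, where 48% of all genes were above 0. Their median was -0.019, beside -0.0033 over all genes tested, and the median absolute difference was 0.058 beside 0.046.

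**Figure D1:**
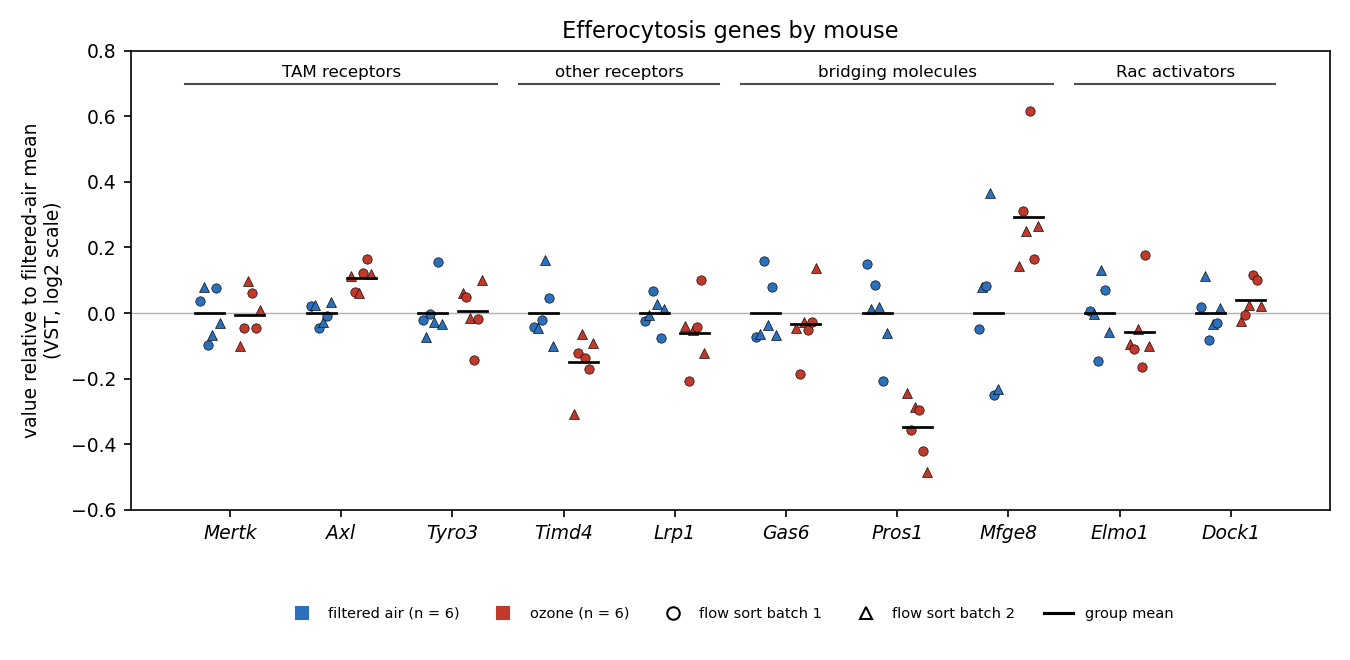
Values of the 10 genes in each mouse on the variance-stabilized log2 scale, relative to the filtered-air mean, with filtered air in blue, ozone in red, circles for flow sort batch 1, triangles for batch 2 and a bar at each group mean. Every ozone mouse lies below every filtered-air mouse in Pros1 and above every one in Axl, while the groups overlap in the other genes.

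Among the bridging molecules, Pros1 lay between -0.484 and -0.244 in the ozone mice, with a median of -0.325. In the filtered-air mice it lay between -0.206 and 0.149, with a median of 0.016. All 6 ozone mice were below the lowest filtered-air mouse, mouse 5. Pros1 fell by 0.35 (SE 0.0597, 95% interval -0.48 to -0.22, limma's adjusted p = 0.00496), to -0.35 ± 0.0911 (SD, n = 6) against 0 ± 0.124 (SD, n = 6). It ranked 165 by p-value among the 19633 genes, and its absolute difference exceeded that of 98.7% of them. The two-sided exact permutation test gave p = 0.00216, the smallest that 6 mice against 6 allow, and p = 0.005, again the smallest possible, when mice were reassigned within batches. The fall was -0.37 in batch 1 and -0.33 in batch 2. After quantile normalization it was -0.29 and limma's adjusted p rose to 0.0941. That step evened out values already centred on filtered air, not expression levels. Without filtered-air mouse 4 and ozone mice 4 and 6, Pros1 still fell by 0.33 (limma's adjusted p = 0.0308). Over all alternatives limma's adjusted p for Pros1 ran from 0.0017 to 0.198, the highest in batch 2 alone.

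Markers of other cells were examined beside this fall. The B cell list differed most in its mean (-0.25), with all 6 markers lower and 0 of 6 passing the test. Its mean over the markers ran from -0.430 to -0.0694 in the ozone mice and from -0.247 to 0.381 in filtered air, so the groups overlapped. The endothelial list had 5 of 6 markers lower and 0 of 6 passing, with a range of -0.305 to 0.272 after ozone and -0.273 to 0.313 in filtered air. The alveolar epithelial list had 7 of 9 markers lower, with a range of -0.203 to 0.0219 after ozone and -0.202 to 0.250 in filtered air. In it 1 marker passed, the adhesion molecule gene Epcam, which lay between -0.762 and -0.335 in the ozone mice and between -0.306 and 0.270 in filtered air and fell by 0.55 (limma's adjusted p = 0.0062). No marker of the other 8 lists of other cells passed. The mean was also lower after ozone in the dendritic cell list (-0.078, 6 of 7 markers lower), the T or NK cell list (-0.016, 6 of 9 lower) and the interstitial macrophage or monocyte list (-0.0035, 6 of 12 lower). It was higher in the airway epithelial list (0.065, 3 of 4 kept markers higher), the fibroblast or muscle list (0.040, 4 of 7 higher) and the neutrophil list (0.019, 3 of 6 kept markers higher). The ozone and filtered-air means overlapped in all of these lists. Of the 14 resident alveolar macrophage markers 4 passed: Car4 (0.32) and Chil3 (0.25) were higher and Krt79 (-0.35) and Ear1 (-0.28) lower, with limma's adjusted p-values of 0.0460, 0.0320, 0.0177 and 0.0358. Chil3 and Ear1 have near-identical relatives, so their values are uncertain where reads could be shared. The mean over these 14 ran from -0.102 to 0.132 after ozone and from -0.0952 to 0.109 in filtered air. These 5 markers were named after their values had been seen, and the part of any of these lists in the Pros1 result was not tested.

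Gas6, the other bridging ligand of the TAM receptors, spanned -0.185 to 0.138 in the ozone mice and -0.0729 to 0.158 in filtered air. The medians were -0.035 and -0.050, and the groups overlapped over most of their range. The difference was -0.033 (SE 0.0559, 95% interval -0.15 to 0.087, limma's adjusted p = 0.842). Its value was -0.14 in batch 1 and 0.077 in batch 2, and its interaction of exposure with batch was the only one of the 10 with an unadjusted p under 0.05 (limma's adjusted p = 1.00).

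Mfge8, which links phosphatidylserine to integrins, had the widest spread of the 10 genes. The ozone mice lay between 0.143 and 0.615 with a median of 0.258, and the filtered-air mice between -0.251 and 0.366 with a median of 0.017. All ozone mice were above 5 of the 6 filtered-air mice, and filtered-air mouse 4, at 0.366, was above 5 of the 6 ozone mice. The difference was 0.29 (SE 0.102, 95% interval 0.073 to 0.51) and did not pass the test (limma's adjusted p = 0.142; two-sided exact permutation test p = 0.0368). Without filtered-air mouse 4 it was 0.37 and passed (limma's adjusted p = 0.0273). Without ozone mouse 4 it was 0.22 and did not pass (two-sided exact permutation test p = 0.0736). Filtered-air mouse 4 and ozone mouse 4 had the highest Mfge8 value of their groups and were above their group's median in 9 of 9 lists of other cells; their part in the Mfge8 values was not tested. Filtered-air mouse 4 also had the lowest RNA integrity number, 8.9 against 9.2 to 9.7 in the other mice, and with that number as a covariate the Mfge8 difference was 0.32 (limma's adjusted p = 0.0809). With both mice left out the difference was 0.30 (limma's adjusted p = 0.0489). With ozone mouse 6 left out as well it was 0.29 (limma's adjusted p = 0.0751). Over the alternatives that did not use the replicate number limma's adjusted p for Mfge8 ran from 0.0273 to 0.818.

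None of the 3 TAM receptors passed the test. Axl, the TAM receptor best known from airway macrophages, lay between 0.0597 and 0.165 in the ozone mice (median 0.116) and between -0.0446 and 0.0339 in filtered air (median 0.007). Every ozone mouse was above every filtered-air mouse. The difference was small, 0.11 (SE 0.0333, 95% interval 0.036 to 0.18), with a mean of 0.11 ± 0.0393 (SD, n = 6) after ozone against 0 ± 0.0319 (SD, n = 6). It did not pass after adjustment over all genes (limma's adjusted p = 0.0918), although the two-sided exact permutation test gave its smallest possible value, p = 0.00216. The spread of Axl around its group and batch means, an SD of 0.0377, was undercut by 1.87% of all genes. Its difference was 0.13 in batch 1 and 0.087 in batch 2.

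Mertk spanned -0.102 to 0.0967 in the ozone mice and -0.0972 to 0.0788 in filtered air, nearly the same range. The difference was -0.0045 (SE 0.0460, 95% interval -0.10 to 0.094, limma's adjusted p = 0.979). Tyro3 spanned -0.142 to 0.10 after ozone and -0.0719 to 0.155 in filtered air. Its difference was 0.0064 (SE 0.0490, 95% interval -0.099 to 0.11, limma's adjusted p = 0.972), with -0.080 in batch 1 and 0.093 in batch 2. Filtered-air mouse 5 held the highest Tyro3 value and the lowest Pros1 value of its group. The interval of Tyro3 includes the difference seen in Axl, and that of Mertk ends short of it, at 0.094.

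**Figure D2:**
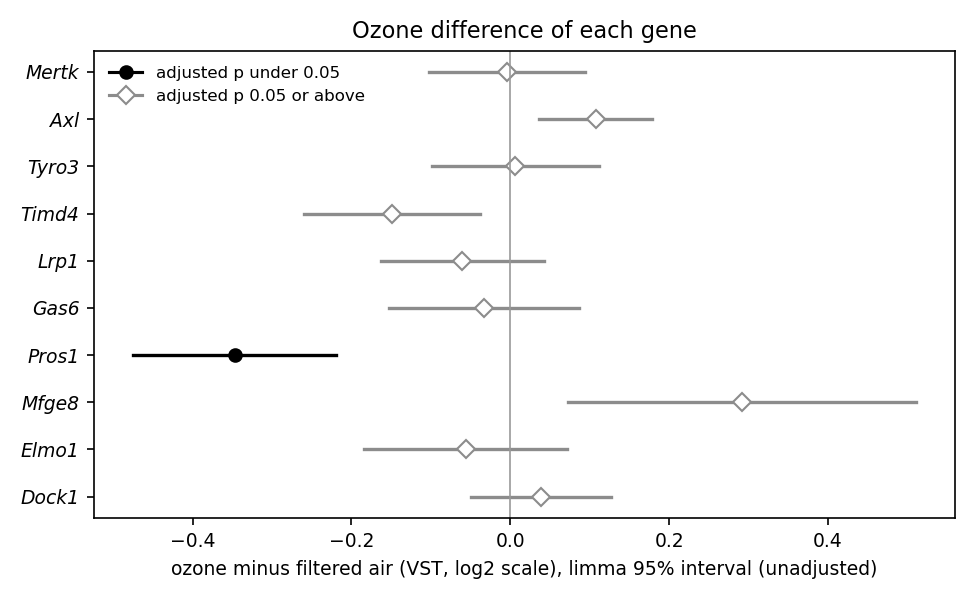
Difference between ozone and filtered air for each gene on the variance-stabilized log2 scale, with limma's unadjusted 95% interval as a line, a filled circle where the adjusted p is under 0.05 and an open diamond elsewhere. Pros1 is the only filled point, and the intervals of Axl, Timd4 and Mfge8 also lie to one side of 0.

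The upstream sequences of Pros1 and Axl are shown because these were the genes whose groups did not overlap. They are the 250 bases before the annotated RefSeq start (GRCm38.p6), read 5′ to 3′ on the strand of the gene, with GC boxes (GGGCGG on either strand, overlapping matches counted separately) in capitals. Pros1 is at chr16:62854057-62854306 on the plus strand and Axl at chr7:25788734-25788983 on the minus strand.
Pros1: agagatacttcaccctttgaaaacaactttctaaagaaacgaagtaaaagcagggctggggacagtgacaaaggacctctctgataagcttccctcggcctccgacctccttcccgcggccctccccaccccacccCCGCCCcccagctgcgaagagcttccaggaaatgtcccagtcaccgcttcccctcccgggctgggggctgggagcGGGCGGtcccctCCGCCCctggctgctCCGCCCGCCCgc
Axl: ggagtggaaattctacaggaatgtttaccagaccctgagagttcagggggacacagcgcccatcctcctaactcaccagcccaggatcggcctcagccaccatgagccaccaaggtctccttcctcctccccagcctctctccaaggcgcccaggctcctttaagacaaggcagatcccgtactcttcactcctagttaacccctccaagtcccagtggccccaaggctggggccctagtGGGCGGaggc
The Pros1 window held 5 GC boxes and a GC content of 64.4%, and the Axl window held 1 GC box and 60% GC. A GC box occurred in the windows of 9 of the 10 genes, the exception being Timd4, and in 32.7% of the 32851 RefSeq windows of this length. The 10 are counted by gene and the RefSeq share by window: Elmo1 has 2 annotated starts, 1 window with 3 GC boxes and a TATAAA and 1 window with 0 of each, and the other genes have 1 window each. The PU.1 core GAGGAA, a motif of a macrophage lineage factor, was found in Axl, Mfge8 and Dock1, against 23.3% of all windows. The AP-1 motif TGANTCA was in 0 of the 10, against 6.75% of all windows, and TATAAA in Elmo1 alone, against 12.4%. Both strands were searched, and these matches describe letters, not bound sites.

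Timd4, the receptor that binds phosphatidylserine directly, lay between -0.307 and -0.0644 in the ozone mice (median -0.13) and between -0.101 and 0.163 in filtered air (median -0.032). All ozone mice were below 0, and filtered-air mouse 6, at -0.101, was below ozone mice 3 and 6. The difference was -0.15 (SE 0.0517, 95% interval -0.26 to -0.038). It did not pass after adjustment (limma's adjusted p = 0.139; two-sided exact permutation test p = 0.00649). Its value was -0.14 in batch 1 and -0.16 in batch 2.

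Lrp1, the endocytic receptor, spanned -0.208 to 0.10 in the ozone mice, with ozone mouse 2 lowest and ozone mouse 5 highest. The filtered-air mice kept within -0.0754 and 0.0679. The difference was -0.061 (SE 0.0480, 95% interval -0.16 to 0.042, limma's adjusted p = 0.605), inside the spread of the ozone mice, whose SD was 0.102 against 0.0487 in filtered air. It was -0.096 without ozone mouse 5 (limma's adjusted p = 0.295; two-sided exact permutation test p = 0.0238, against 0.225 with all mice) and -0.028 without ozone mouse 2.

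For the Rac activators, Elmo1 lay between -0.163 and 0.177 in the ozone mice (median -0.097) and between -0.147 and 0.131 in filtered air (median 0.0012). Of the ozone mice 5 were below 0, and ozone mouse 5 was the highest of all 12 mice. The difference of -0.056 did not pass (SE 0.0599, 95% interval -0.18 to 0.072, limma's adjusted p = 0.720). It was -0.11 without ozone mouse 5, -0.089 without filtered-air mouse 3, -0.033 without ozone mouse 4 and -0.027 without filtered-air mouse 4. Dock1, the exchange factor that Elmo1 binds, spanned -0.0227 to 0.115 after ozone and -0.0823 to 0.112 in filtered air. Its difference was 0.039 (SE 0.0412, 95% interval -0.050 to 0.13, limma's adjusted p = 0.720), and it ranged from 0.020, without filtered-air mouse 3, to 0.063, without filtered-air mouse 2.

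The ozone difference had the same sign in both batches in 6 of the 10 genes, or 60%, against 63.7% of all genes. Pros1, Timd4, Lrp1 and Elmo1 were lower after ozone in both batches, and Axl and Mfge8 higher in both. Gas6, Tyro3, Mertk and Dock1 took opposite signs, in Mertk with differences of only -0.016 and 0.0071. For Mfge8 the difference was 0.44 in batch 1 and 0.15 in batch 2. In limma's test of the interaction, 0 of the 10 genes and 0% of all genes had an adjusted p under 0.05, and 2.60% of all genes had an unadjusted p under 0.05.

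**Figure D3:**
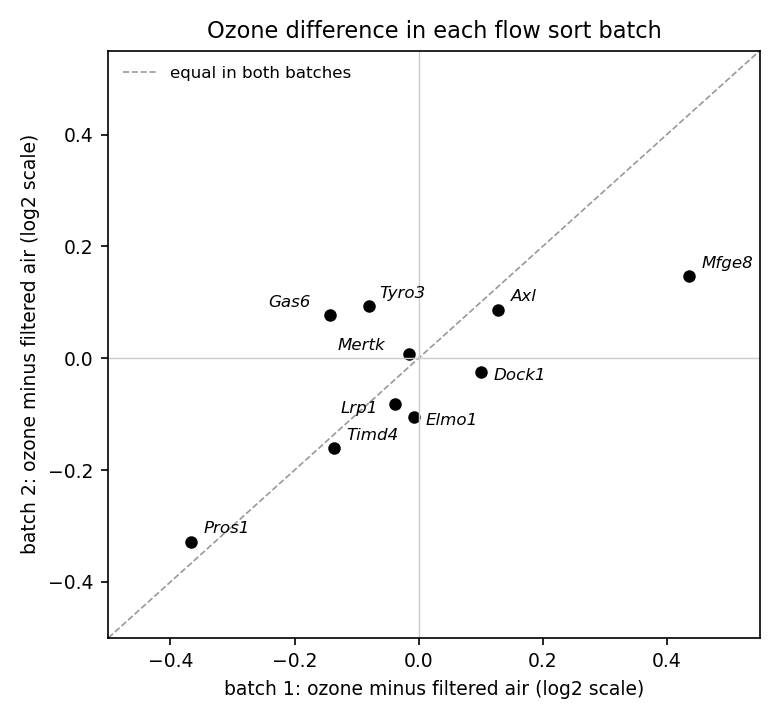
Difference between ozone and filtered air in flow sort batch 1 (horizontal axis) and batch 2 (vertical axis), both on the variance-stabilized log2 scale, with 3 mice against 3 in each and a dashed line where both are equal. Pros1 lies near the line at -0.37 and -0.33, Axl at 0.13 and 0.087, and Mfge8 lies below the line at 0.44 and 0.15.

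Among the 5 pairs examined, no correlation of a ligand with its receptor, or of Elmo1 with Dock1, was detected from mouse to mouse. After exposure and batch were removed, Pearson's r over the 12 mice was -0.12 for Gas6 with Axl (Spearman's rho -0.22) and -0.049 for Gas6 with Mertk (rho -0.070). It was -0.19 for Pros1 with Mertk (rho -0.20) and 0.24 for Elmo1 with Dock1 (rho 0.19). In two-sided permutation tests over the 5 pairs examined, these 4 had raw p-values of 0.714, 0.879, 0.550 and 0.467 for r, each 0.879 after adjustment, and 0.498, 0.835, 0.544 and 0.559 for rho, with adjusted values of 0.699, 0.835, 0.699 and 0.699. Pros1 with Tyro3 gave the strongest value, r = -0.56 (permutation p = 0.0605, adjusted p = 0.302; rho -0.20, permutation p = 0.543, adjusted p = 0.699). Without the 2 mice farthest from the median of Pros1 that r was 0.10, and without filtered-air mouse 5 alone it was -0.15, so it rested on few mice. It was -0.67 within batch 1 and -0.29 within batch 2. For the other pairs, in the order given, r without the 2 farthest mice was 0.11, 0.31, 0.11 and 0.15, within batch 1 it was -0.13, -0.19, -0.26 and 0.43, and within batch 2 it was -0.092, 0.10, -0.12 and -0.14. Gas6 with Tyro3, also a ligand and its receptor, had an r of 0.39 and was not tested.

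The genes most like Pros1 in their deviations after exposure and batch were removed were Gm44993 (r = 0.96), the lactate transporter gene Slc16a1 (r = 0.95) and Gm37824 (r = 0.94), over 12 mice and among 19632 genes compared. They were picked as the highest of that many values, and how high chance alone would reach was not tested. None of these genes passed the ozone test: their differences were 0.052, 0.076 and 0.057, with limma's adjusted p-values of 0.549, 0.646 and 0.597.

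Other genes of apoptotic-cell clearance were read from lists that do not contain the 10. Of 95 listed genes 91 were kept, and 7 passed limma's test, 4 higher and 3 lower, which is 7.69% beside 4.25% of all genes. The median difference of the 91 was 0.0097. Of the other apoptotic-cell receptors 16 of 19 were kept, and 2 rose and 1 fell. Trem2, a receptor for lipids on dying cells, lay between 0.441 and 0.874 in the ozone mice and between -0.161 and 0.182 in filtered air, and rose by 0.60 (SE 0.0751, limma's adjusted p = 0.000811). Its call was lost in batch 1 alone (rise 0.63, limma's adjusted p = 0.0591) and in batch 2 alone (rise 0.56, limma's adjusted p = 0.0890). Cd36, which binds oxidized phospholipids, lay between -0.596 and -0.310 against -0.0759 to 0.0681, and fell by 0.46 (SE 0.0513, limma's adjusted p = 0.000402). Itgb5, the integrin beta chain that pairs with Itgav to bind Mfge8, lay between 0.323 and 0.389 against -0.0885 to 0.0447 (rise 0.35, limma's adjusted p = 0.000112). The groups did not overlap in any of the 3. Itgav itself differed by 0.010 and Itgb3, the other beta chain for Mfge8, by -0.079, and neither passed (limma's adjusted p = 0.962 and 0.461).

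Of the other bridging molecules and opsonins, 14 of 14 were kept and 1 passed. C3, the central complement opsonin, rose by 0.64 (SE 0.0942, limma's adjusted p = 0.00193), with the ozone mice between 0.449 and 1.09 and the filtered-air mice between -0.159 and 0.145. This call was lost in batch 1 alone (rise 0.73, limma's adjusted p = 0.102) and in batch 2 alone (rise 0.56, limma's adjusted p = 0.0594). The C1q chains, which also coat dying cells, differed by 0.22 (C1qa), 0.26 (C1qb) and 0.21 (C1qc), and none passed (limma's adjusted p = 0.450, 0.273 and 0.454).

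Of the other engulfment genes 21 of 21 were kept, and 2 fell. Pik3r1, a regulatory subunit of phosphoinositide 3-kinase, lay between -0.360 and -0.244 after ozone and between -0.178 and 0.151 in filtered air, and fell by 0.31 (SE 0.0511, limma's adjusted p = 0.00401). Its call was lost after quantile normalization, where the fall was 0.27 (limma's adjusted p = 0.0721, within a range of 0.0015 to 0.167 over all alternatives). Crk, an adaptor that recruits Dock1, fell by 0.17 (SE 0.0433, limma's adjusted p = 0.0354), and this call was lost when any 1 of filtered-air mice 1, 2, 3 or 4 or of ozone mice 3, 4, 5 or 6 was left out. Over those 12 fits Crk fell by 0.15 to 0.19, with limma's adjusted p from 0.0332 to 0.0868. It was also lost after quantile normalization (0.140), with a mean-variance trend (0.0584) and with RNA integrity as a covariate (0.0514), and limma's adjusted p reached 0.443, in batch 2 alone. The trend could follow only the size of the ozone difference, because gene means in this table carry no abundance.

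Of the phagosome maturation genes 17 of 17 were kept and 1 passed. Dnase2a, the lysosomal nuclease that digests DNA of engulfed cells, rose by 0.15 (SE 0.0404, limma's adjusted p = 0.0470). This call was kept only without ozone mouse 6 among the 12 fits that left out 1 mouse, in which the rise was 0.12 to 0.17 and limma's adjusted p 0.0359 to 0.106. It was also lost after quantile normalization, with a rise of 0.14 (limma's adjusted p = 0.160, within a range of 0.0264 to 0.548 over all alternatives).

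Among genes that act on the receptors, 0 of 6 for receptor shedding, 0 of 12 transcription factors and 0 of the 5 kept of 6 suppressors of TAM signalling passed. The smallest p-values in the shedding and transcription factor lists belonged to Rhbdf1, a partner of the shedding protease Adam17 (difference -0.11, limma's adjusted p = 0.0847), and to Nr1h3, which encodes the sterol receptor LXR alpha (0.15, limma's adjusted p = 0.0797). Without the batch covariate both passed (limma's adjusted p = 0.0474 for Rhbdf1 and 0.0496 for Nr1h3), and for Rhbdf1 this was the lowest of a range up to 0.572 over all alternatives. The deposited values already had equal batch means, so leaving out this term kept both differences the same and only made the test less strict. Without filtered-air mouse 4, the mouse with the lowest RNA integrity number, Nr1h3 passed, with a difference of 0.18 (limma's adjusted p = 0.0269, the lowest of a range up to 0.682 over all alternatives).

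**Figure D4:**
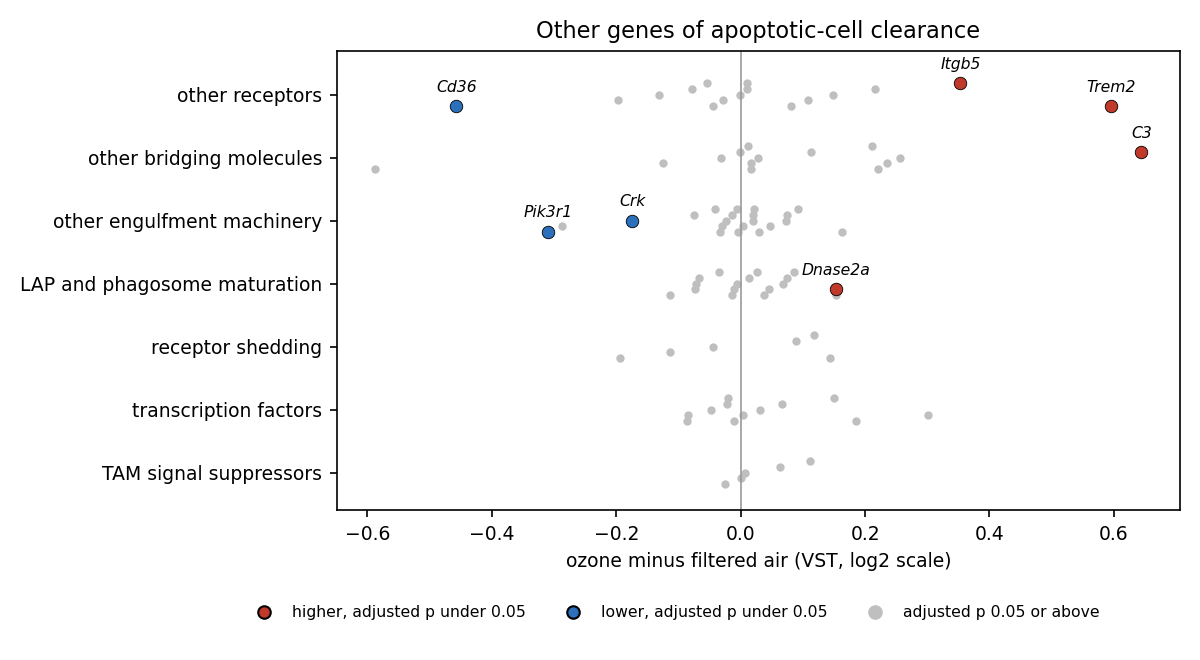
Difference between ozone and filtered air for 91 other genes of apoptotic-cell clearance, 1 point per gene and 1 row per list, on the variance-stabilized log2 scale, with genes of adjusted p under 0.05 coloured and named. Trem2, C3, Itgb5 and Dnase2a lie to the right of 0 and Cd36, Pik3r1 and Crk to the left, and the bottom 3 lists hold no coloured point.

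In the GRCm38 build with GENCODE M21 genes, Pros1 lies on chromosome 16 from 62854307 to 62929346 and Axl on chromosome 7 from 25757273 to 25788705. Mfge8 lies on chromosome 7 from 79133768 to 79149060 and Timd4 on chromosome 11 from 46810800 to 46844332. Tyro3 and these 4 overlap no other annotated gene. Mertk, Gas6, Lrp1, Elmo1 and Dock1 overlap genes on the opposite strand, such as Tmem255b at Gas6, and whether counting used the strand is not given in the sources used here. Mertk, Elmo1 and Dock1 also overlap genes on their own strand (Gm23172 at Mertk, Gm45532 at Dock1 and 3 such genes at Elmo1), which strand cannot separate.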

How the data were processed

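The authors deposited 1 table on a log2 scale, variance-stabilized and batch-corrected per the file name. The submitters' processing notes name cutadapt, STAR 2.7.7a, Salmon 1.5.2, DESeq2 1.26.0, R 3.6.0, limma 3.42.2 and mm10; their roles and the annotation are not given in the sources used here, and read totals were not analysed here. All 12 columns matched 1 sample title each. In the deposited log2 values the filtered-air mean and the difference of the flow sort batch means are 0 in every gene.

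The test here was limma (version 3.58.1, R 4.3.3), modelling exposure and flow sort batch without a variance trend and adjusted by Benjamini-Hochberg over 19633 genes at 0.05. Genes were kept where at least 6 of 12 mice lay above the minimum shared by mice of their batch, which excluded 5811 of the 25444 that were not constant. Exact permutation tests used 924 assignments of the mice, or 400 within batches. The fit was tested on simulated data. The 10 genes, the lists and the tests were chosen with earlier results of these data known. Named genes are all 10, those called in each list (up to 6), otherwise the smallest p, and the 3 most like each called gene; 1 gene that this rule names is not reported here. Alternatives changed the filter, batch term, variance model, array weights, RNA integrity, normalization, replicate number, batches and mice used. RNA integrity numbers were 8.9 to 9.7.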

Additional observations from a re-analysis of the deposited data

Results flagged for a closer look

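Dixon's ratio was computed for 40 combinations of gene and group with 6 mice each, and 4 exceeded Dixon's 95% critical value; chance gives about 1 in 20. Tyro3 was 0.16 in filtered-air mouse 5, above the other 5 mice of its group (ratio 0.699). Mfge8 was 0.62 in ozone mouse 4, the highest of the ozone mice (ratio 0.644). Elmo1 was 0.18 in ozone mouse 5, while the other ozone mice were below 0 (ratio 0.661). C3 was 1.09 in ozone mouse 4 (ratio 0.733), and without this mouse C3 still rose by 0.54.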

How the results depend on the processing

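Against 834 genes called, quantile normalization gave 171, batch 1 alone 90, batch 2 alone 0, the robust fit with a variance trend 363 and leaving out filtered-air mouse 4 with ozone mouse 4 gave 534; the last 2 settings were chosen after seeing the data, as was leaving out ozone mouse 6 as well. Quantile normalization worked on values centred on filtered air, so it evened out the spread of differences between mice, not expression levels. How far the calls depend on normalization of expression levels was not tested. Gene means in this table carry no abundance, so a variance trend could follow only the ozone difference and is no independent check. Leaving out 1 mouse gave 538 to 751. Of the 10 genes, 1 was called; 0 were called after quantile normalization or in either batch alone, where Pros1 fell short with adjusted p-values of 0.0941, 0.145 and 0.198, and 2 without filtered-air mouse 4 together with ozone mouse 4, when Mfge8 was added. Leaving out 1 mouse gave 1 to 2, the higher count without filtered-air mouse 4. Exact permutation gave 4 genes under 0.05, and 3 to 5 without single mice. The interaction test called 0 of the 10 under every setting run. Differences near 0 changed sign: Tyro3 in batch 1 (-0.080), Mertk (0.0071), Gas6 (0.077) and Dock1 (-0.024) in batch 2, and Elmo1 without filtered-air mouse 4 and ozone mouse 4 (0.0032) and without ozone mouse 6 as well (0.012). Without single mice Mertk ranged from -0.027 to 0.017, Tyro3 from -0.014 to 0.041 and Gas6 from -0.070 to 0.0025. The correlations ranged without single mice from -0.48 to 0.20 for Gas6 with Axl, -0.20 to 0.31 for Gas6 with Mertk, -0.35 to 0.10 for Pros1 with Mertk, -0.71 to -0.15 for Pros1 with Tyro3 and -0.087 to 0.48 for Elmo1 with Dock1. The cause was not tested for any of these. Of 520 results for single genes under alternatives, 447 kept their direction and call, 48 lost the call, 6 gained it and 19 changed sign. Only genes called in the main fit could lose a call, and most of the 447 belong to genes that were not called. Crk kept its call in 4 of 12 fits without 1 mouse and in 6 of 14 others, and Dnase2a in 1 of 12 and 5 of 14.

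Both groups number their mice 1 to 6, but no mouse is in both, so they were not treated as paired. Most same-numbered mice were sorted in different batches. Deviations of same-numbered mice still correlated above 0.1 in 4 of 6 pairs (range -0.0026 to 0.28). With the replicate block 853 genes and 2 of the 10 were called, Pros1 and Mfge8 (0.29, adjusted p 0.0131).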
